A study of Mus musculus with 12 samples.

Results

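The NMDA receptor subunit genes described here are *Grin1*, *Grin2a*, *Grin2b*, *Grin2c*, *Grin2d* and *Grin3a*, chosen by name as a receptor family. No measured value entered the rule, but earlier results of these data were known when the genes were chosen. They are 6 of the 26409 genes in the deposited table. All 6 reached the mean of 0.1 TPM asked of the 18197 genes tested, and 5 of them had a mean of at least 1 TPM. TPM values correct for the length of the transcript and for the total of the library. Levels of different genes are set side by side below as listed, and they depend on the transcript models used to quantify each gene. Protein-coding transcripts of *Grin2b* alone run from 601 to 24060 bases. The family's remaining gene, *Grin3b*, was also listed and is described at the end of the subunits.

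RNA came from the whole hippocampus of 12 adult C57Bl/6 mice, 6 WT and 6 *Dek* cKO, each genotype with 3 female and 3 male libraries. Mice called *Dek* cKO lack *Dek*, which encodes a chromatin protein, in all tissues from the germline on: mice with loxP sites around exons 3 and 4 were crossed to CMV-Cre mice, Cre was bred out, and the line was kept by mating heterozygotes. All mice were 6 to 12 months old and had been through behavioral assays in the weeks before the tissue was taken. The study asked how loss of *Dek* changes hippocampal transcripts in each sex, and the comparisons below ask this of the receptor subunits.

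NMDA receptors are glutamate-gated cation channels that open only when glutamate and a coagonist, glycine or D-serine, are bound and the membrane is depolarized enough to expel magnesium from the pore. Receptors of this kind combine GluN1, encoded by *Grin1*, with GluN2 subunits (*Grin2a* to *Grin2d*). GluN3 subunits (*Grin3a*, *Grin3b*) can also join GluN1. Calcium entry through these channels is required for common forms of long-term potentiation in the hippocampus, and the GluN2 subunit sets how fast the channel closes, how strongly magnesium blocks it and which signaling proteins it holds.

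*Dek* was 48.3 ± 2.58 TPM (SD, n = 6) in WT and 7.23 ± 1.32 TPM (SD, n = 6) in cKO libraries, so all libraries carried the genotype given by their label. Sex labels were less clear. The Y-linked *Eif2s3y* was at 72.7 TPM in the library labelled female cKO 3 and at 0.111 TPM in the library labelled male cKO 1, each against its label, whereas the other 5 female libraries were between 0.159 and 0.993 TPM and the other 5 male libraries between 69.0 and 92.0 TPM. Groups follow the labels, and results are also given without both libraries. The 3 female WT libraries carry names that begin with C57 and the other 9 begin with CMV, so in females the name and the genotype cannot be told apart. Markers of excitatory neurons summed to between 3300 and 4031 TPM per library, with every marker of CA1, CA3 and dentate granule cells above 0.5 TPM on average. Nothing in the labels says more about how the 3 mice of a group were related, and p-values measure the spread between these libraries.

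As listed, the 5 subunit transcripts with a mean of at least 1 TPM stood in a fixed order. *Grin1* had a mean of 263 TPM over the 12 libraries, *Grin2b* 64.9 TPM, *Grin2c* 23.4 TPM, *Grin3a* 13.0 TPM and *Grin2d* 5.31 TPM. This order held in 12 of 12 libraries, and no neighbors overlapped: the lowest *Grin1* value was 223 TPM against a highest *Grin2b* value of 71.8 TPM, and the lowest *Grin2b* value was 56.4 TPM against a highest *Grin2c* value of 27.8 TPM. Lower down, the lowest *Grin2c* value was 20.2 TPM against a highest *Grin3a* value of 16.2 TPM, and the lowest *Grin3a* value was 10.7 TPM against a highest *Grin2d* value of 6.25 TPM. Of the genes tested, 2.13% had a higher mean than *Grin1*, 12.1% a higher mean than *Grin2b* and 58.9% a higher mean than *Grin2d*. Order and spread can be seen in the plot of TPM by library.

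**Figure D1:**
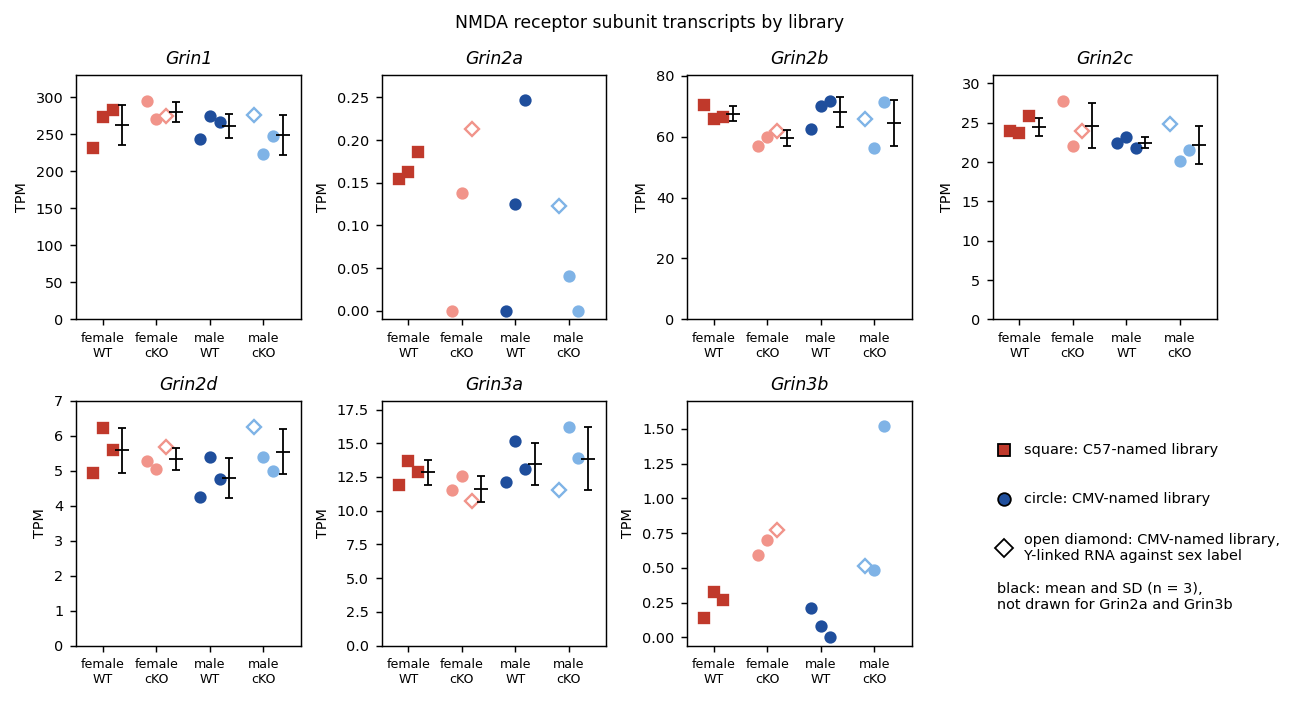
TPM of each NMDA receptor subunit gene (y axis, a separate scale per panel) in the 12 libraries, grouped by sex and genotype (x axis). Squares are libraries with C57 names, circles libraries with CMV names, and open diamonds the 2 libraries whose *Eif2s3y* level goes against the labelled sex. Black marks show the mean and SD of 3 libraries and are not drawn for *Grin2a* and *Grin3b*. WT and cKO points overlap for all 6 members, *Grin2b* is lower in the 3 female cKO libraries than in the 3 female WT libraries, and *Grin3b* is higher in all 6 cKO libraries at levels of at most 1.52 TPM.

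No listed subunit row rose or fell past the threshold in *Dek* cKO hippocampus. The 6 include *Grin2a*, whose mean was 0.146 TPM in WT and 0.0857 TPM in cKO libraries. That row is not read as a level of *Grin2a* mRNA, so its counts below do not show that this mRNA was unchanged. In the comparison of all 6 cKO with all 6 WT libraries, 0 of the 6 members passed the threshold in limma (adjusted p below 0.05, fold change above 1.2), which 0.148% of all genes tested passed. At an unadjusted p under 0.05, 1 member was lower (*Grin2b*) and 0 were higher, against 1.8% of all genes lower and 4.84% higher. Members' adjusted p ranged from 0.746 to 0.999 (limma, Benjamini-Hochberg over all genes tested). The median log2 fold change of the 6 members was −0.03 and that of all genes 0.02. Over the 5 members with a mean of at least 1 TPM, the widest fold change inside any 95% confidence interval was 1.22. In bulk tissue, fewer cells of a type and less RNA per cell cannot be told apart.

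*Grin1* encodes GluN1, the subunit that every NMDA receptor needs and that binds the coagonist. The gene (ENSMUSG00000026959) lies on chromosome 2 at 25291181 to 25319187 on the minus strand of GRCm38. *Grin1* ranged from 231 to 282 TPM in WT libraries (median 270) and from 223 to 295 TPM in cKO libraries (median 272). The cKO group held both the lowest and the highest library, and the groups overlapped throughout. Means were 262 ± 20.1 TPM (SD, n = 6) in WT and 264 ± 25.4 TPM (SD, n = 6) in cKO, with a log2 fold change of 0.01 (SE 0.07, 95% interval −0.14 to 0.16). Within females the means were 262 TPM in WT and 280 TPM in cKO, and within males 261 TPM in WT and 249 TPM in cKO. Neither passed the test (limma, adjusted p = 0.95 and 0.94), nor did the interaction, the male minus the female log2 fold change, at −0.17 (adjusted p = 0.966). Without both libraries of conflicting sex, the log2 fold change of *Grin1* was 0.11 in females and −0.15 in males. The interaction was then −0.27 (limma adjusted p = 0.609), and none of these values passed the threshold.

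*Grin2b* encodes GluN2B, which slows channel closing and binds CaMKII, a kinase central to synaptic potentiation. The gene (ENSMUSG00000030209) spans 135713233 to 136173511 on the minus strand of chromosome 6. *Grin2b* ranged from 62.5 to 71.8 TPM in WT libraries (median 68.3) and from 56.4 to 71.4 TPM in cKO libraries (median 60.9). In 4 of 6 cKO libraries it was below every WT library, and the groups overlapped in the other 2, both labelled male. Means were 67.8 ± 3.48 TPM (SD, n = 6) in WT and 62.0 ± 5.71 TPM (SD, n = 6) in cKO, a difference of −8.54%. The log2 fold change was −0.13 (SE 0.06, 95% interval −0.26 to −0.0025) with an adjusted p of 0.746 in limma. The unadjusted p was 0.0464, a level that 6.64% of all genes tested reached.

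By sex, the *Grin2b* values of the genotypes separated in females and overlapped in males. Female WT libraries had 70.3, 65.9 and 66.6 TPM of *Grin2b*, and female cKO libraries 56.9, 59.9 and 62.0 TPM. All 3 cKO values were below all 3 WT values, as was true of 4.59% of all genes tested. Male WT libraries had 62.5, 70.0 and 71.8 TPM, and male cKO libraries 65.7, 56.4 and 71.4 TPM. The log2 fold change of *Grin2b* was −0.18 (SE 0.09, limma adjusted p = 0.852) in females and −0.08 (SE 0.09, adjusted p = 0.931) in males. The test of the difference between the sexes gave 0.10 (95% interval −0.17 to 0.37, adjusted p = 0.966), so no difference between sexes was shown. Without both libraries of conflicting sex, the log2 fold change was −0.21 in females, −0.099 in males and −0.15 over both sexes, and with CMV-named libraries alone, 6 cKO against 3 male WT, it was −0.14. These values did not pass the threshold either, and without the library labelled male cKO 2 the male value turned to 0.011.

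*Grin2c* encodes GluN2C, which confers weak magnesium block and is best known from cerebellar granule cells and astrocytes. The gene (ENSMUSG00000020734) lies on chromosome 11 at 115249169 to 115267243 on the minus strand. *Grin2c* ranged from 21.8 to 25.8 TPM in WT libraries (median 23.4) and from 20.2 to 27.8 TPM in cKO libraries (median 23.0). The cKO libraries were spread on both sides of the WT libraries. Means were 23.4 ± 1.39 TPM and 23.4 ± 2.74 TPM (SD, n = 6 each), with a log2 fold change of −0.01 (95% interval −0.17 to 0.15). Astrocyte markers summed to between 1346 and 1495 TPM in WT and between 1381 and 2303 TPM in cKO libraries. The highest sum, in the library labelled male cKO 3, came from 1 gene, the reactive astrocyte marker *Gfap*, at 1267 TPM there against 208 to 437 TPM in the other libraries. Without *Gfap* the sums were 1136 to 1237 TPM in WT and 1036 to 1285 TPM in cKO libraries.

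*Grin2d* encodes GluN2D, a subunit with very slow deactivation that in the adult hippocampus is known mainly from interneurons. The gene (ENSMUSG00000002771) lies on chromosome 7 at 45831883 to 45878378 on the minus strand. *Grin2d* ranged from 4.24 to 6.22 TPM in WT libraries (median 5.17) and from 5.0 to 6.25 TPM in cKO libraries (median 5.34). The groups overlapped, with the lowest value in a male WT library and the highest in the library labelled male cKO 1, whose *Eif2s3y* level goes against its label. Means were 5.19 ± 0.694 TPM in WT and 5.44 ± 0.465 TPM in cKO (SD, n = 6 each), with a log2 fold change of 0.07 (95% interval −0.15 to 0.29). In males the means were 4.80 TPM in WT and 5.55 TPM in cKO, a log2 fold change of 0.21 (SE 0.14, limma adjusted p = 0.899), and in females it was −0.06. Without both libraries of conflicting sex, the male value of *Grin2d* was 0.12 and the value over both sexes 0.007. Interneuron markers summed to between 982 and 1045 TPM in WT and between 1015 and 1459 TPM in cKO libraries. The highest sum, again in the library labelled male cKO 3, came from the neuropeptide gene *Npy*, at 529 TPM there against 108 to 141 TPM in the other libraries, and without *Npy* the sums were 868 to 938 TPM in WT and 906 to 960 TPM in cKO libraries.

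*Grin2a* encodes GluN2A, known as an abundant subunit of adult hippocampal pyramidal cells, but its row was near the floor. The gene (ENSMUSG00000059003) spans 9567898 to 9995560 on the minus strand of chromosome 16. Female WT libraries had 0.154, 0.163 and 0.186 TPM, and female cKO libraries 0, 0.138 and 0.213 TPM. Male WT libraries had 0, 0.125 and 0.247 TPM, and male cKO libraries 0.123, 0.0412 and 0 TPM. No library exceeded 0.247 TPM and 3 listed the gene at 0. Of the genes tested, 98.7% had a higher mean. Of 106 partner genes of the receptor listed below, 1 had a mean under 0.5 TPM, the glycine transporter gene *Slc6a5*, and of 86 cell type markers 1 did, the cerebellar *Gabra6*. These counts rest on means and do not show low values in single libraries. The oligodendrocyte marker *Mag*, for example, ran from 0.00237 to 28.6 TPM. The *Grin2a* row is not read here as the level of *Grin2a* mRNA, and why it is low was not tested. Its log2 fold change of −0.45 had a 95% interval from −1.34 to 0.44 (limma adjusted p = 0.917).

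*Grin3a* encodes GluN3A, which lowers calcium permeability and is most abundant in young brain. The gene (ENSMUSG00000039579) lies on chromosome 4 at 49661611 to 49845744 on the minus strand. *Grin3a* ranged from 11.9 to 15.2 TPM in WT libraries (median 13.0) and from 10.7 to 16.2 TPM in cKO libraries (median 12.1). In 3 of 6 cKO libraries it was below every WT library and in 1 above every WT library, so the cKO libraries were the more spread. Means were 13.2 ± 1.19 TPM in WT and 12.8 ± 2.02 TPM in cKO (SD, n = 6 each), with a log2 fold change of −0.05 (95% interval −0.27 to 0.16). Without both libraries of conflicting sex it turned to 0.037. The value was −0.14 in females and 0.04 in males, and neither passed the test (limma adjusted p = 0.95 and 0.992).

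**Figure D2:**
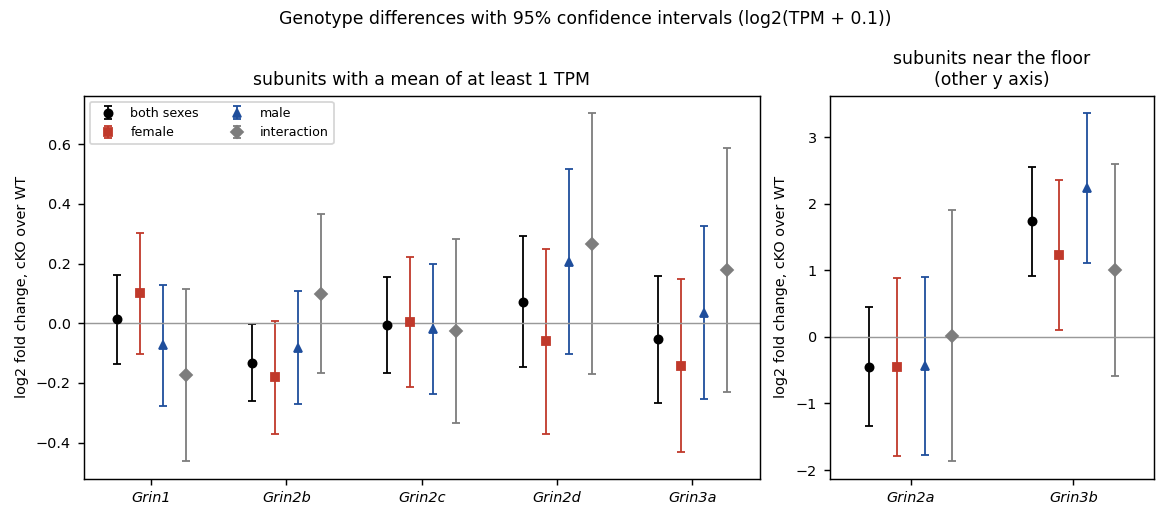
Log2 fold change of each subunit gene, cKO over WT, on the log2(TPM + 0.1) scale (y axis), with 95% confidence intervals from limma, for both sexes, females, males and the interaction (male minus female effect). The right panel holds the 2 genes near the floor on its own y axis. For the 5 genes of the left panel the both-sexes intervals reach at most a fold change of 1.22, and that of *Grin2b* ends just below 0.

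Within each sex, 0 of the 6 members passed the threshold, which 0.0165% of genes passed in females and 0.0165% in males. At an unadjusted p under 0.05 the count was 0 of 6 in either sex, against 5.79% of all genes in females and 5.45% in males. For the interaction, 0 of 6 passed, against 0% of all genes, and 0 of 6 had an unadjusted p under 0.05, against 4.23% of all genes. Between male WT and female WT libraries the counts were again 0 of 6, against 0% of all genes past the threshold and 3.63% at an unadjusted p under 0.05. These groups also differ in their library names. With 3 libraries a group, intervals of the 5 members averaging at least 1 TPM still held fold changes up to 1.35 in females. The limits were 1.43 in males and 1.63 for the interaction.

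Because receptors are assembled from GluN1 and partner subunits, the balance of the transcripts within each library was described as well, without a test. The ratio of *Grin1* to *Grin2b* TPM was 3.87 ± 0.336 in WT and 4.29 ± 0.579 in cKO libraries (SD, n = 6 each). In females it ranged from 3.29 to 4.23 in WT and from 4.43 to 5.19 in cKO libraries. These female groups also differ in their library names, and female cKO values lay below WT for 4.59% and above WT for 7.45% of single genes. No such share was computed for ratios. In males it ranged from 3.72 to 3.92 in WT and from 3.47 to 4.2 in cKO libraries. Without both libraries of conflicting sex, the ratio was 5.19 and 4.51 in the female cKO and 3.96 and 3.47 in the male cKO libraries left, and the library labelled male cKO 1, at 4.2, lay within the female WT range. The ratio of *Grin1* to the listed *Grin2* and *Grin3* values combined showed the same layout, from 2.08 to 2.53 in female WT, 2.66 to 2.89 in female cKO, 2.39 to 2.41 in male WT and 2.18 to 2.53 in male cKO libraries. This ratio takes the low *Grin2a* row as listed, and since both ratios hold *Grin1* and *Grin2b* they are not separate from the *Grin2b* values above.

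Among the *Grin2* genes as listed, *Grin2b* held 70.2% ± 1.77 of their summed TPM in WT and 68.1% ± 3.09 in cKO libraries (SD, n = 6 each). The range was 67.9 to 72.8% in WT and 63.2 to 72.9% in cKO, and the groups overlapped. *Grin2c* held 24.3% in WT and 25.8% in cKO libraries, and *Grin2d* 5.37% and 5.99%. These shares also take the low *Grin2a* row as listed. The plot of subunit balance shows these values by library.

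**Figure D3:**
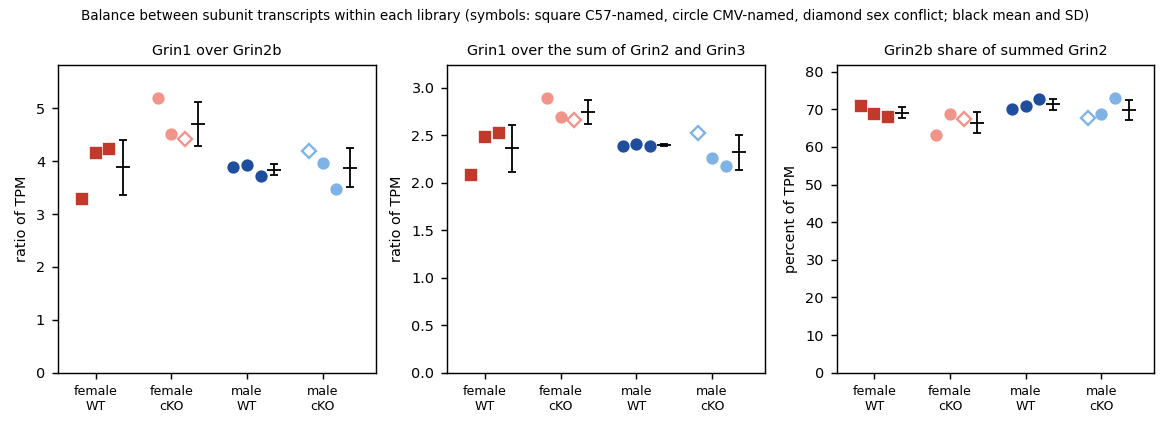
Ratio of *Grin1* to *Grin2b* TPM, ratio of *Grin1* to summed *Grin2* and *Grin3* TPM, and percent of summed *Grin2* TPM held by *Grin2b* (y axes from 0) in each library, by sex and genotype (x axis), with mean and SD of 3 libraries in black. Both ratios lie higher in the 3 libraries labelled female cKO (from 4.43 and 2.66) than in the 3 female WT libraries (up to 4.23 and 2.53). Of single genes, 7.45% lay above and 4.59% below WT in this way, and no such share was computed for ratios. The library labelled male cKO 1, with *Eif2s3y* against its label, is at 4.2 and 2.53.

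A few libraries held the extremes of several subunits. The library labelled male cKO 2 had the lowest *Grin1*, *Grin2b* and *Grin2c* and the highest *Grin3a* of all 12 libraries. It also had the lowest sum of excitatory neuron markers (3300 TPM) and the highest sum of meningeal markers (227 TPM). The library labelled female cKO 1 had the highest *Grin1* and *Grin2c*, with the lowest sums of choroid plexus (47.5 TPM) and meningeal (45.6 TPM) markers and the highest sum of cortical markers (158 TPM). The part of such tissue differences in the subunit values was not tested. All 15 marker lists overlapped between the genotypes in their summed TPM. Of single genes tested, 0.572% had all 6 cKO values above WT and 0.104% all 6 below, so overlap was the usual outcome. Choroid plexus sums ran from 73.3 to 3055 TPM in WT and from 47.5 to 4468 TPM in cKO libraries. Oligodendrocyte sums ran from 2348 to 4866 TPM in WT and from 2678 to 4391 TPM in cKO libraries.

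Across the 12 libraries, the members did not move as a block. All genes of a library share its scaling and tissue makeup, and the marker sums above differed between libraries. The part of such differences in the correlations below was not tested. Pearson's r of log2(TPM + 0.1) was 0.71 between *Grin1* and *Grin2c*, −0.62 between *Grin2c* and *Grin3a*, −0.40 between *Grin1* and *Grin3a*, and −0.02 between *Grin1* and *Grin2b*. Among 14159 other genes averaging 1 TPM or more, the pattern over libraries most like that of *Grin1* belonged to *Acox3*, *Nckap5l* and *Ppp2r5d* (r 0.933, 0.929 and 0.926). For *Grin2b* it was *Ppp3r1*, the regulatory subunit gene of the phosphatase calcineurin, *Nckap1* and *Rnf19a* (r 0.93, 0.917 and 0.885). For *Grin2c* it was *Dzip1*, *Borcs6* and *Cabp1* (r 0.941, 0.891 and 0.885), and for *Grin2d* *Trim28*, *Prkcsh* and *Lims1* (r 0.914, 0.881 and 0.869). For *Grin3a* it was the adhesion molecule gene *Cadm1*, *Tpbg* and *Plxnc1* (r 0.941, 0.937 and 0.923), and for the near-floor *Grin2a* *Kcng2*, *Tle3* and *Phactr2* (r 0.877, 0.875 and 0.869). These are descriptions of the closest of many genes over few libraries.

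*Grin3b*, which encodes GluN3B and is known mainly from motor neurons, stood apart from the 6 members, and its description was chosen after its values were seen. The gene (ENSMUSG00000035745) lies on chromosome 10 at 79970715 to 79977190 on the plus strand. Female WT libraries had 0.138, 0.327 and 0.266 TPM and female cKO libraries 0.592, 0.703 and 0.769 TPM. Male WT libraries had 0.208, 0.0802 and 0 TPM and male cKO libraries 0.516, 0.485 and 1.52 TPM. All 6 cKO values were above all 6 WT values, as was true of 0.572% of all genes tested and of 0.718% of those with a mean under 1 TPM. Within a sex, 3 cKO values lay above 3 WT values for 7.45% of all genes in females and 5.91% in males. The log2 fold change on the log2(TPM + 0.1) scale was 1.74 (SE 0.38, 95% interval 0.92 to 2.55), and *Grin3b* did not pass the threshold (limma adjusted p = 0.142). The size of the value at this level depends on the amount added before the log2 transform, being 0.57 with 1 TPM added. In females it was 1.23 (adjusted p = 0.845) and in males 2.24 (adjusted p = 0.51), and the difference between the sexes was 1.01 (adjusted p = 0.966). Exons of *Grin3b* overlap those of *Tmem259* on the opposite strand, which was at 87.3 ± 4.88 TPM in WT and 85.9 ± 4.31 TPM in cKO libraries (SD, n = 6 each), a log2 fold change of −0.02 (adjusted p = 0.975). The study's methods describe a stranded mRNA library kit, and whether strand was used when the reads of this pair were quantified is not given in the sources used here.

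Proteins that anchor, modify, move and supply the receptor were followed with a list of 106 partner genes, of which 105 were tested. In the comparison of both sexes 0 of 105 passed the threshold, against 0.148% of all genes tested. At an unadjusted p under 0.05, 2 partners were higher (1.9%, against 4.84% of all genes) and 5 were lower (4.76%, against 1.8%). The median log2 fold change of the partners was −0.01 and that of all genes 0.02, and the genotypes were separated without overlap in 0 partners, against 0.572% of all genes with cKO above WT and 0.104% with cKO below. Within females 1 was higher and 4 were lower at an unadjusted p under 0.05 (3.91% and 1.88% of all genes), and within males 0 and 3 (3.68% and 1.78%). For the interaction 1 was higher and 4 were lower (2.07% and 2.16%), and 0 passed the threshold in any of these comparisons.

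Among the 24 scaffold and adaptor genes, 1 had an unadjusted p under 0.05, a level that 6.64% of all genes tested reached. *Neto1*, which encodes an auxiliary protein of NMDA and kainate receptors, was at 45.3 ± 3.24 TPM in WT and 38.5 ± 4.16 TPM in cKO libraries (SD, n = 6 each), a log2 fold change of −0.24 (SE 0.07, limma adjusted p = 0.454). Its cKO values ran from 33.6 to 43.4 TPM and overlapped the WT range of 41.8 to 49.6 TPM.

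Of 25 kinases and phosphatases, 2 had an unadjusted p under 0.05 (6.64% of all genes). *Ptpn5*, the phosphatase STEP that acts on GluN2B, was at 63.6 TPM in WT and 72.7 TPM in cKO libraries (log2 fold change 0.19, limma adjusted p = 0.593), and *Ppp3cb*, a catalytic subunit of calcineurin, at 218 and 206 TPM (−0.08, adjusted p = 0.704).

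In the remaining groups of partners, 1 of 14 calcium and Ras effectors, 1 of 12 trafficking genes, 1 of 16 genes of coagonist and glutamate supply and uptake, and 1 of 14 modulators had an unadjusted p under 0.05, again against 6.64% of all genes. The Ras exchange factor gene *Rasgrf1* was at 228 TPM in WT and 201 TPM in cKO libraries (log2 fold change −0.18, limma adjusted p = 0.573). *Kif17*, the motor that carries GluN2B along dendritic microtubules, was at 17.5 ± 1.22 TPM in WT and 23.4 ± 5.02 TPM in cKO libraries (SD, n = 6 each), a log2 fold change of 0.39 (SE 0.12, adjusted p = 0.456). The glial glutamate transporter gene *Slc1a2* was at 545 TPM in WT and 494 TPM in cKO libraries (−0.14, adjusted p = 0.539), and *Grm5*, the metabotropic receptor mGluR5, at 81.9 and 73.0 TPM (−0.17, adjusted p = 0.568). None of these passed the threshold, as the plot of partners by role shows.

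**Figure D4:**
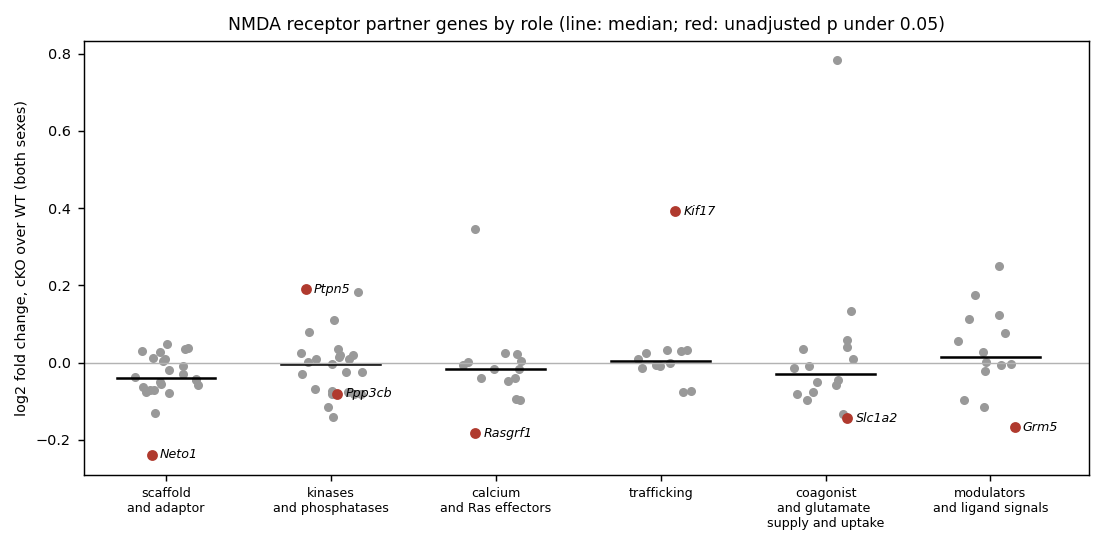
Log2 fold change, cKO over WT in both sexes (y axis), of the 105 partner genes tested, by role (x axis). Points are genes, black lines the median of each role, and red named points the 7 genes with an unadjusted p under 0.05. The medians of all roles lie between −0.041 and 0.015, and 5 of the 7 named genes are below 0.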

How the data were processed

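Hippocampal RNA of 12 mice was measured by RNA-seq. The TPM table deposited by the authors has 1 column for each library, and 0 columns lacked a sample. The submitters' processing notes name kallisto and mm10, and the study's methods name STAR and Salmon, so the tool that made the TPM values is not settled. The study's methods state a read depth per sample, but reads per gene and library are not kept in TPM, so no counting error was computed and precision rests on the 3 libraries per group. Columns summed to between 825750 and 845553 TPM. Of 26409 Ensembl IDs, 25245 were found in GENCODE M21 (GRCm38). The members and lists were chosen with earlier results of these data known.

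Genes averaging 0.1 TPM or more, 18197 in all, were tested on the log2(TPM + 0.1) scale with limma (version 3.58.1, R 4.3.3), a trended prior variance, two-sided tests and Benjamini-Hochberg adjustment over all genes. Fold changes of genes near 0.1 TPM are understated on this scale. Both sexes were compared as 2 groups of 6 libraries, and sexes, interaction and WT groups in 1 fit of 4 groups. The study's DESeq2 test needs counts and was not run. Named genes were the 6 members, *Grin3b*, *Dek*, every partner gene past the threshold or with an unadjusted p under 0.05 in both sexes (at most 10), and for each subunit the 3 genes with the highest Pearson r among genes averaging 1 TPM or more. *Eif2s3y* and *Tmem259* were added as checks. Of the partner list, 1 gene is not reported here and is left out of the list's counts.

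Alternatives were 0.5 or 1 TPM added, a filter of 1 TPM on the mean or none, scaling by median ratio or by quantiles, no trend, sex as a covariate, CMV-named libraries only, a fit on 6 libraries, a replicate block, both libraries of conflicting sex left out, and each library left out in turn. *Grin3b* under these alternatives was added after seeing the data. The fit was tested on simulated data of 18197 genes in which 200 were given a log2 change of 1. Of these, 89.5% were found for both sexes, 79.5% for females and 59.5% for the interaction, with 7, 14 and 7 false calls. Estimates of the 5 members with a mean of at least 1 TPM were smaller, such as −0.13 for *Grin2b* over both sexes and 0.27 for the *Grin2d* interaction. The simulation does not show how often changes of that size would be found. Other steps used Python 3.11.15 with pandas 2.3.3, numpy 2.4.6 and, for figures, matplotlib 3.10.9.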

Additional observations from a re-analysis of the deposited data

Results flagged for a closer look

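*Grin3b* in the library labelled male cKO 3 was at 1.52 TPM, far above the other 5 cKO libraries, of which the nearest was at 0.769 TPM. The gap took a share of 0.726 of the range of the cKO group, above the critical value of Dixon's test for 6 samples. Of 14 groups examined in this way, 1 was marked, and chance marks about 1 in 20. The library labelled male cKO 3 also had the highest *Gfap* (1267 TPM) and *Npy* (529 TPM) of all libraries. Without this library the log2 fold change of *Grin3b* over both sexes was 1.54 (limma adjusted p = 0.236).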

How the results depend on the processing

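In limma, 0 members passed the threshold in any comparison under any alternative run, and 44 of 649 alternative values changed sign, all within 0.085 of 0 on the log2 scale except values of *Grin2a*. The deposited unit does not keep reads per gene, so counting error was not computed, and 3 libraries a group left small changes unresolved. *Grin2a* has no value where a mean of at least 1 TPM was required. Causes of the changes below were not tested, other than the smaller number of libraries where some were left out.

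With median ratio scaling, *Grin1* turned to −0.0042 over both sexes and to 0.0087 between WT sexes, and *Grin2c* to −0.012 in females. With quantile scaling, *Grin2c* turned to −0.013 in females and the *Grin2a* interaction to −0.092, which was −0.027 with 0.5 TPM added and −0.019 with 1 TPM added. Without both libraries of conflicting sex, *Grin1* turned to −0.019 and *Grin3a* to 0.037 over both sexes. With CMV-named libraries only, *Grin2c* turned to 0.054.

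With each library left out in turn, these values changed sign. Over both sexes, *Grin1* ran from −0.022 to 0.061 and *Grin2c* from −0.058 to 0.034. In females, *Grin2a* ran from −0.80 to 0.027, *Grin2c* from −0.085 to 0.08 and *Grin2d* from −0.14 to 0.018. In males, *Grin1* ran from −0.15 to 0.0011, *Grin2b* from −0.16 to 0.011, *Grin2c* from −0.10 to 0.047 and *Grin3a* from −0.083 to 0.16. For the interaction, *Grin2a* ran from −0.48 to 0.42 and *Grin2c* from −0.11 to 0.066. Between WT sexes, *Grin1* ran from −0.088 to 0.055, *Grin2a* from −0.84 to 0.062, *Grin2b* from −0.032 to 0.069 and *Grin3a* from −0.024 to 0.14. *Grin2b* over both sexes kept its direction, from −0.17 without male cKO 3 to −0.11 without female cKO 1, with unadjusted p between 0.00478 and 0.104 and adjusted p between 0.402 and 0.896. *Grin3b* ran from 1.48 to 1.9, with adjusted p between 0.125 and 0.31.

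Nothing in the labels links WT and cKO libraries of the same replicate number beyond that number. Their deviations from the group means correlated at −0.038, 0.006 and 0.001 in females and 0.039, 0.045 and 0.016 in males. These values do not show how the mice were related. With the number as a replicate block, *Grin2b* over both sexes was −0.13 (unadjusted p = 0.0602) and *Grin3b* 1.74 (adjusted p = 0.461), and 0 members and 0 partners passed. Over all genes, 3 passed with the block and 27 without it.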
